A study of Mus musculus with 2 samples.

Results

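The cytosolic ribosomal protein genes encode the protein shell of the ribosome, the particle that translates every nuclear-encoded message. They were taken as all listed symbols that start with Rpl or Rps followed by a digit, together with Rplp0, Rplp1, Rplp2 and Rpsa, leaving out pseudogene symbols with -ps and the Rps6k kinases. The rule gave 87 of the 27998 genes listed, 53 with Rpl symbols (large subunit) and 34 with Rps symbols (small subunit). All 87 were found in the GENCODE M21 annotation of GRCm38, on 19 chromosomes and with at most 14 on any of them. At least 1 UMI (unique molecular identifier, each counting 1 captured RNA molecule) was found for 86 of them, and Rpl10l had 0 UMIs in both libraries.

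A ribosome needs its proteins in nearly equal numbers, so their messages are abundant in growing cells and are regulated together. Most of these messages begin with a C followed by a run of pyrimidines, the TOP motif (terminal oligopyrimidine), through which Larp1 and the mTOR kinase adjust their translation and stability. Blood cell maturation is a textbook setting for their loss: erythroblasts and neutrophils shut down ribosome production as they differentiate, whereas lymphocytes keep it.

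Droplet-based 3′ RNA sequencing was done on cells taken at 14 days from hydrogel-filled defects of 2 mm in the parietal bone. All mice were C57BL/6 and wild type. CGG-Cit hydrogel filled the defects behind one library and CGG hydrogel those behind the other. The sources used here neither spell out these names nor give the number of mice, their age or their sex. With 1 library per hydrogel there is no replicate check: differences between hydrogels are differences between these libraries, and the 95% intervals given cover counting error only.

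After filtering, 9994 cells with 95785575 UMIs remained in the CGG-Cit library and 11073 cells with 82287885 UMIs in the CGG library, at medians of 5913.5 UMIs and 3969 UMIs per cell, and 34 barcodes occurred in both. Cells were put in lineages by detected marker genes, and in stage gates within a lineage by levels of a few more markers, none of them a ribosomal protein gene. The markers that set the lineages are by construction higher inside them, and their levels are given as a description. The B lineage markers, for example, summed to 10700 CPM (UMIs per 1000000 UMIs) in B lineage cells and 141 CPM in all others of the CGG-Cit library. Col1a1, a collagen gene of stromal cells, read 1.05 to 17.1 CPM in CGG-Cit gates and 160 to 976 CPM in CGG gates of the B, neutrophil and erythroid series. Its part in the differences between libraries was not tested.

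The start sites of 69 of the 87 genes were matched by symbol in RefSeq sequence of GRCm38.p6. The windows below are shown because the TOP motif is the shared start feature of this family and because they show Rps9 and Rpl22l1, which the results turn on, and set Rps27 and Rpl39 beside related copies. Each covers 12 bases before an annotated start and 18 from it on, 5′ to 3′ on the gene's strand. Capitals mark the longest run of C and T that begins with C within 5 bases of the start and has at least 5 bases. For a gene with several annotated starts, a start with such a run was shown where there was one, so the windows are not a test of the motif.

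Rps27: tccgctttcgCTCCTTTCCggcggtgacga
Rps27rt: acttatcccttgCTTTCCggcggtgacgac
Rps27l: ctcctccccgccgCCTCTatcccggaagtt
Rps6: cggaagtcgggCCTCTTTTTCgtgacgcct
Rps9: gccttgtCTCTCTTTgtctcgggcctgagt
Rpl39: aagctccgCCTCTagcgacttcttctaatc
Rpl39l: ccaggcctttccggatttccggtggtcgcc
Rpl22l1: cggcgcaagcccgttCTCTTCCCacggctg

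These windows lie at chr3:90213631-90213660 (Rps27, minus strand), chr9:114982722-114982751 (Rps27rt, minus), chr9:66946074-66946103 (Rps27l, plus), chr4:86857350-86857379 (Rps6, minus), chr7:3704029-3704058 (Rps9, plus), chrX:37085205-37085234 (Rpl39, minus), chr16:10170216-10170245 (Rpl39l, plus) and chr3:28805496-28805525 (Rpl22l1, plus). In Rpl39l no such run began within 5 bases of the annotated start. A run of C and T in its window begins farther upstream and is not marked. Over the family, 32 of 69 genes (46.4%) had such a run at a start, against 5718 of 27025 genes in the table (21.2%). Here and for the letters below, a gene counted if any of its annotated starts had them. Genes with several starts thus had more chances. The letters CCGGAAG, searched on both strands of the 300 bases around the start, were in 26 of the 69 (37.7%) and in 9.93% of all genes. TATAAA, searched the same way, was in 8 of the 69 (11.6%) and in 15.7% of all genes. Annotated starts can be some bases off, so an unmarked window says only that no such run began within those 5 bases.

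Over all kept cells the family made up 17.9% of UMIs in the CGG-Cit library and 15.1% in the CGG library, a difference of 2.84 percentage points (2.82 to 2.85). Most members were abundant, and 71 of the 87 genes reached 1000 CPM. Rps24, a small-subunit protein gene at chr14:24487125-24496959, was highest, at 4416 CPM in the CGG-Cit library and 3579 CPM in the CGG library. UMIs of a 3′ kit count molecules, so levels were not divided by gene length. Below 100 CPM were 7 genes, among them Rpl10l, Rpl3l, Rpl39l and Rpl7l1, relatives of standard members, and Rps19bp1, which encodes a binding partner of the Rps19 protein rather than a ribosome component. Rpl6l was also among the lowest. It is a processed pseudogene in the annotation and was singled out after its values were seen.

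The direction over all cells was not that of most gates. Of 12 gates with at least 100 cells in each library, 9 had a lower share in CGG-Cit and 3 a higher one. With doublets kept, or without mitochondrial and the 20 highest other genes in the total, 6 of 12 were higher. CD8 T cells were the highest gate in CGG-Cit and had the largest gap, at 33.3% in CGG-Cit and 29.2% in CGG (difference 4.08 points, 3.94 to 4.22). Their interquartile range over cells was 26.6% to 39.1% in CGG-Cit and 25.1% to 34.4% in CGG, so single cells overlapped widely. Small pre-B cells had 22.9% in CGG-Cit and 21.4% in CGG (1.51 points, 1.39 to 1.62). Ms4a1-expressing B cells, the most mature B gate, went the other way with 24.3% in CGG-Cit and 26.0% in CGG (−1.69 points, −1.81 to −1.57).

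CD4 T cells had 27.4% in CGG-Cit and 25.5% in CGG, and NK cells 26.9% in CGG-Cit and 24.7% in CGG, with 72 and 60 cells in their smaller libraries. Stromal gates, which make the matrix of the defect, lay lower: in CGG, Sfrp2 fibroblasts had 15.3%, cycling stromal cells 13.2%, osteoblast lineage cells 12.97% and mural cells 11.4%. The CGG-Cit library held 11 Sfrp2 fibroblasts, 1 cycling stromal cell, 5 osteoblast lineage cells and 7 mural cells, too few to compare. Endothelial cells had 19.5% in CGG-Cit (51 cells) and 16.6% in CGG (251 cells).

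**Figure D1:**
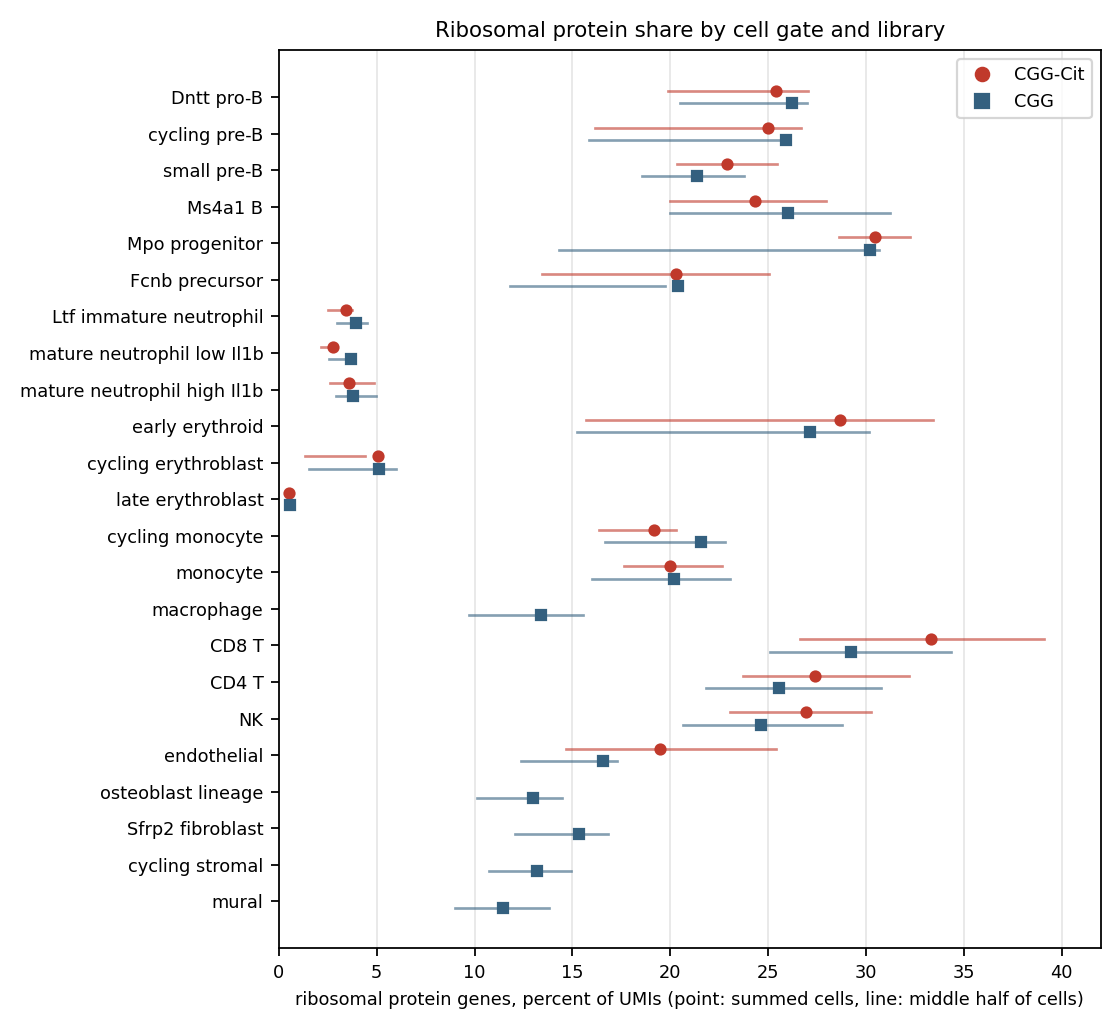
Share of UMIs from ribosomal protein genes (x axis, percent) in gates with at least 50 cells, CGG-Cit as circles above CGG as squares. Ptgds stromal cells, Cd163l1-expressing T cells, and mast cells and basophils are not drawn. Points are summed cells and lines span the interquartile range of single cells. Late erythroblasts lie at 0.518% in CGG-Cit and 0.547% in CGG, and CD8 T cells at 33.3% in CGG-Cit and 29.2% in CGG.

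The libraries differed in their mix of cells. B lineage cells gave 24.7% of UMIs in CGG-Cit and 5.88% in CGG, at ribosomal protein shares of 24.6% in CGG-Cit and 24.9% in CGG. Myeloid progenitors gave 19.3% in CGG-Cit and 5.92% in CGG, at shares of 27.9% in CGG-Cit and 27.6% in CGG. Stromal cells, with shares of 13.5% in CGG-Cit and 14.2% in CGG, gave 1.08% of UMIs in CGG-Cit and 33.6% in CGG. When the difference of 2.84 points was divided over 12 parts, the lineages and the cells left unassigned (9.66% of UMIs in CGG-Cit and 9.77% in CGG), 1.80 points came from the mix and 1.04 points from levels within parts. With lineages split by stage into 35 parts, 2.49 points came from the mix and 0.343 points from levels within them. Parts with few CGG-Cit cells entered at the share of those cells, such as 11 Sfrp2 fibroblasts, 7 macrophages and 1 cycling stromal cell. The term for levels within parts rests partly on them, and its error was not estimated.

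Between neighbouring stages of the B, neutrophil, erythroid and monocyte series, each within 1 library, 21 steps could be compared: the later stage had the lower share in 16 and the higher share in 5. High-Il1b mature neutrophils were taken as the stage after low-Il1b ones, an order that was not tested. The share was higher in the high-Il1b cells in both libraries. The erythroid series spanned the widest range. In CGG-Cit, early erythroid cells had 28.7%, cycling erythroblasts 5.08% and late erythroblasts 0.518% (0.509 to 0.526). In CGG, early erythroid cells had 27.1%, cycling erythroblasts 5.13% and late erythroblasts 0.547% (0.534 to 0.560). Each step was many times the gap between the libraries at that stage. The median cell's share was 27.7%, 2.08% and 0.406% along the series in CGG-Cit and 22.7%, 2.49% and 0.504% in CGG. Summed cycling erythroblasts thus stood above their median cell, and single cells there reached 34.7% in CGG-Cit and 28.8% in CGG.

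Globin messages took 90.1% of UMIs in late erythroblasts of CGG-Cit and 89.6% in CGG, within the same total as the ribosomal protein share. The median ribosomal protein UMIs per cell, which has no denominator, was 6485, 220.5 and 49 along the series in CGG-Cit and 3454, 237 and 56.5 in CGG. With mitochondrial genes and the 20 highest other genes left out of the total, late erythroblasts still stood at 7.15% in CGG-Cit and 7.11% in CGG, below early erythroid cells at 35.1% in CGG-Cit and 35.02% in CGG.

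All 83 genes tested were at least 2-fold lower in late erythroblasts than in early erythroid cells in both libraries. That reads against 92.6% of all genes tested in CGG-Cit and 90.9% in CGG, so the count itself does not set the family apart. The median log2 change was −5.86 in CGG-Cit and −5.70 in CGG, against −4.97 in CGG-Cit and −4.38 in CGG for all genes. Rps18 was 121-fold lower in CGG-Cit and 123-fold lower in CGG, and Rps29 26.6-fold lower in CGG-Cit and 23.6-fold lower in CGG. Large-subunit genes made up 59.4% of the family's UMIs in late erythroblasts of CGG-Cit and 60.0% in CGG, the highest of the gates described in each library, where the lowest, 50.6% in CGG-Cit and 51.9% in CGG, were in mature neutrophils with low Il1b.

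The neutrophil series lost most of its share at a single step. Mpo progenitors, which make the primary granule proteins, had 30.4% in CGG-Cit, where Fcnb precursors had 20.3%, Ltf immature neutrophils 3.43%, mature neutrophils with low Il1b 2.77% and those with high Il1b 3.60%. In CGG the same stages had 30.2%, 20.4%, 3.96%, 3.67% and 3.79%. Among Ltf immature, low-Il1b and high-Il1b neutrophils the stages differed by no more than 0.831 points within a library, and the libraries differed by 0.897 points within the low-Il1b stage. Between Fcnb precursors and Ltf immature neutrophils, which make the secondary granule proteins, the share was 5.92-fold lower in the later stage in CGG-Cit and 5.15-fold lower in CGG. Per cell the libraries were less alike: the median ribosomal protein UMIs were 5482.5 and 257 in CGG-Cit and 544.5 and 319 in CGG. At that step 82 of 83 genes in CGG-Cit were at least 2-fold lower (all genes 40.1%) and 81 of 83 in CGG (all genes 42.9%).

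S100a8 and S100a9, the most abundant messages of neutrophils, held 33.4% of UMIs in Ltf immature neutrophils of CGG-Cit and 32.6% in CGG. Without mitochondrial and the 20 highest other genes the share was 7.60% there in CGG-Cit and 8.46% in CGG, against 27.8% in Fcnb precursors of CGG-Cit and 27.1% in those of CGG. The drop was thus smaller on that scale and of the same direction.

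**Figure D2:**
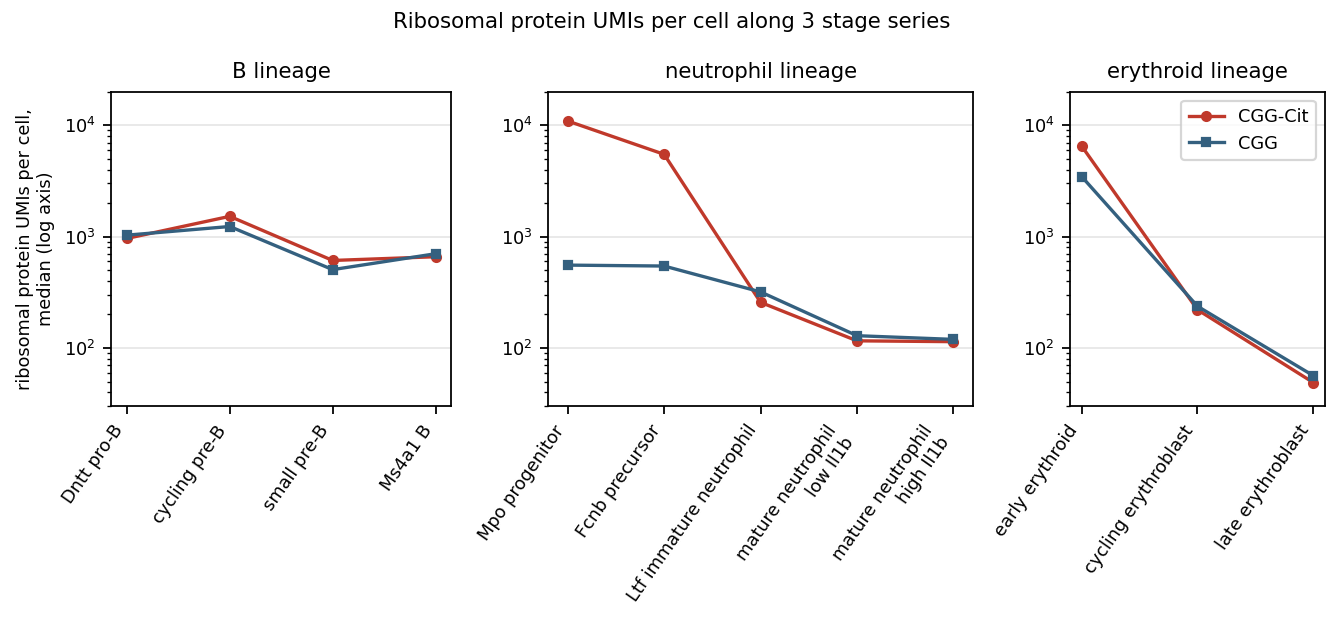
Median ribosomal protein UMIs per cell (y axis, log scale) along the B, neutrophil and erythroid series, early stages on the left, for CGG-Cit (circles) and CGG (squares). High-Il1b neutrophils lie at 114 in CGG-Cit and 119.5 in CGG, late erythroblasts at 49 in CGG-Cit and 56.5 in CGG, and the CGG Mpo progenitors start at 555 where those of CGG-Cit start at 10923.

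The low start of the CGG neutrophil series came with shallow cells. Mpo progenitors had a median of 34750 UMIs per cell in CGG-Cit and 3080 UMIs in CGG, and the median cell's ribosomal protein share was 30.7% in CGG-Cit and 20.1% in CGG although the summed shares were almost equal. Only 7 of the 258 CGG-Cit cells but 96 of the 153 CGG cells had under 5000 UMIs. Those 96 cells had a share of 17.2% and 5995 CPM of Col1a1, against 31.6% and 149 CPM in the 57 deeper CGG cells. The 251 deeper CGG-Cit cells had 30.5% and 2.42 CPM of Col1a1. Of the 88 Fcnb precursors of CGG, 51 also had under 5000 UMIs, with a share of 14.9% and 5289 CPM of Col1a1. Whether the shallow CGG cells are progenitors or precursors was not tested.

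The B lineage kept most of its share. In CGG-Cit, Dntt pro-B cells had 25.4%, cycling pre-B cells 24.97%, small pre-B cells 22.9% and Ms4a1 B cells 24.3%. In CGG, Dntt pro-B cells had 26.2%, cycling pre-B cells 25.9%, small pre-B cells 21.4% and Ms4a1 B cells 26.0%. In small and cycling pre-B cells the median ribosomal protein UMIs per cell was 611 and 1521 in CGG-Cit and 505.5 and 1233 in CGG. The smaller cells thus held fewer of these messages. The summed share, small minus cycling, differed by −2.08 points in CGG-Cit and −4.50 points in CGG. As a mean of per-cell shares the direction turned, with small minus cycling pre-B cells at 1.31 points in CGG-Cit and 0.182 points in CGG. In cycling pre-B cells the share went with depth: over 4 bins of cells from the shallowest to the deepest it was 18.4%, 18.1%, 21.2% and 29.5% in CGG-Cit and 16.8%, 18.8%, 21.2% and 30.3% in CGG. From the shallowest to the deepest bin, Dntt pro-B cells rose from 20.9% to 27.1% in CGG-Cit and from 21.6% to 28.8% in CGG. Early erythroid cells rose from 14.9% to 32.3% in CGG-Cit and from 16.6% to 33.8% in CGG. Small pre-B cells had a flat profile, between 22.2% and 23.5% in CGG-Cit and between 20.5% and 21.8% in CGG.

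Within the family, Rps2 moved most at that step, at 2.44-fold lower in small than in cycling pre-B cells in CGG-Cit and 2.83-fold lower in CGG. It was 1 of 2 genes at least 2-fold lower in CGG-Cit (all genes 12.1%) and 1 of 6 in CGG (all genes 14.1%). Rps27 went the other way, at 3671 CPM in small and 2331 CPM in cycling pre-B cells of CGG-Cit, and 4630 CPM in small and 3108 CPM in cycling pre-B cells of CGG.

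In the monocyte series, cycling monocytes had 19.2% in CGG-Cit and 21.6% in CGG, and monocytes 19.99% in CGG-Cit and 20.2% in CGG. C1qa-expressing macrophages of CGG (663 cells) had 13.4%, and CGG-Cit held 7 such cells. Between macrophages and monocytes of CGG, the family's median log2 change was −0.60, against −0.07 for all genes tested. In macrophages 80 of 83 genes were lower and 4 were at least 2-fold lower (all genes 7.54%). Those 4 were Rplp0, Rpsa, Rps26 and Rpl36al, between 2.07-fold and 2.20-fold lower. Rplp1, a stalk protein gene, was higher in macrophages, at 4035 CPM against 3469 CPM in monocytes.

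Mature neutrophils kept an unlike mixture of the family. Rps9, which encodes a small-subunit protein (chr7:3703993-3706897), made up 6.55% of ribosomal protein UMIs in high-Il1b neutrophils of CGG-Cit and 1.41% in Mpo progenitors, and in CGG 5.58% in the neutrophils and 1.35% in the progenitors. Rps27a (chr11:29545846-29548109), whose product is cleaved into ubiquitin and a small-subunit protein, had 5.70% in these neutrophils of CGG-Cit against 2.13% in progenitors, and 4.82% against 2.08% in CGG. Rps27 (chr3:90212522-90213651) had 3.26% in neutrophils of CGG-Cit against 0.612% in progenitors, and 4.03% against 0.811% in CGG. These members took a larger part of the pool in the mature cells of both libraries. Together with Rpl37, a large-subunit gene, these genes made up 18.7% of the family's UMIs in high-Il1b neutrophils of CGG-Cit against 5.18% in Mpo progenitors, and 17.9% against 5.49% in CGG.

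**Figure D3:**
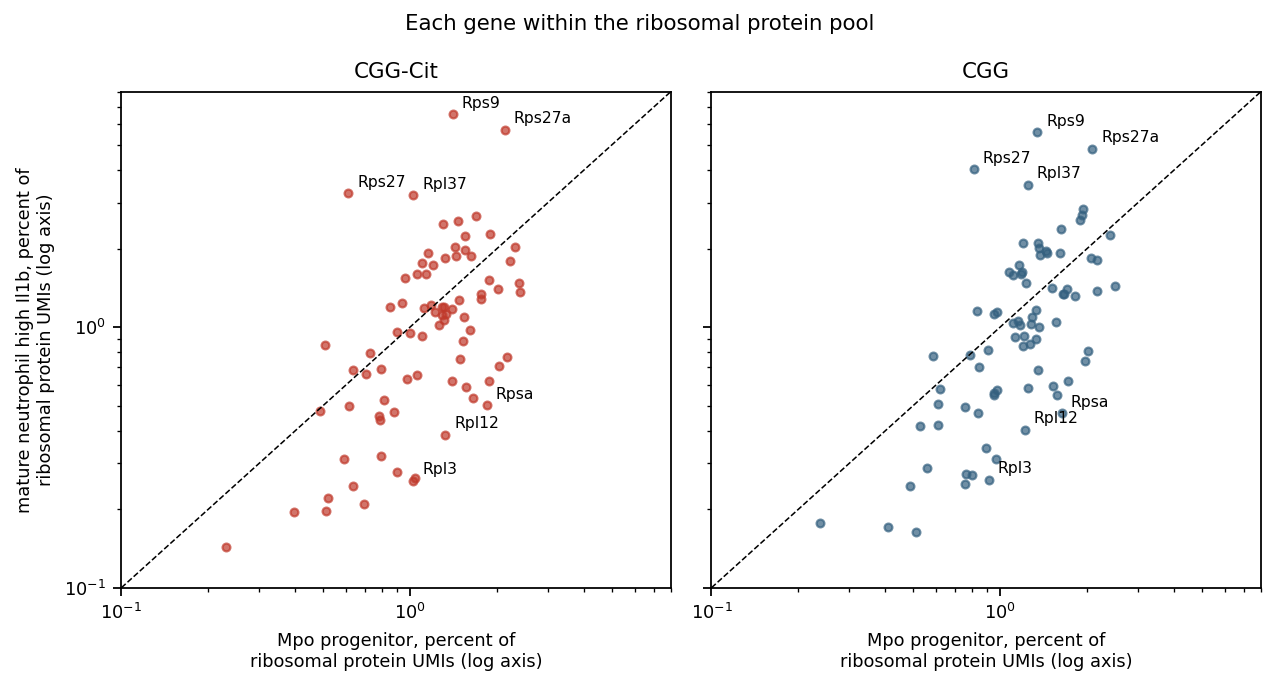
Each gene's percent of ribosomal protein UMIs in Mpo progenitors (x axis, log scale) and in high-Il1b mature neutrophils (y axis, log scale), CGG-Cit on the left and CGG on the right, for the 80 genes above 0.1% and 0.05%. The dashed line marks equal percent. Rps9, Rps27a, Rps27 and Rpl37 stand above it in both panels, and Rpl3, Rpl12 and Rpsa below.

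Between high-Il1b neutrophils and Mpo progenitors, 80 of 83 genes were at least 2-fold lower in each library, against 52.6% of all genes in CGG-Cit and 50.6% in CGG. The other 3 were Rps9, Rps27 and Rps27rt. Rps27 had 1172 CPM in neutrophils and 1863 CPM in progenitors of CGG-Cit, and 1528 CPM in neutrophils and 2449 CPM in progenitors of CGG. Rps9 had 2358 CPM in neutrophils and 4292 CPM in progenitors of CGG-Cit, and 2116 CPM in neutrophils and 4068 CPM in progenitors of CGG. So even these genes were lower per UMI of the full total in the neutrophils, by less than the others. Mitochondrial and the 20 highest other genes held 43.72% of that total in these neutrophils of CGG-Cit and 41.96% in CGG. In Mpo progenitors they held 11.24% in CGG-Cit and 10.56% in CGG. Whether Rps9, Rps27 and Rps27rt were also lower with those genes left out of the total was not tested.

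At the other end stood Rpl3, a large-subunit protein near the catalytic centre, with 92.7 CPM in neutrophils and 3128 CPM in progenitors of CGG-Cit (33.7-fold lower) and 98.1 CPM in neutrophils and 2760 CPM in progenitors of CGG (28.0-fold lower). Rpsa, the laminin receptor protein of the small subunit, was 31.1-fold lower in CGG-Cit and 27.9-fold lower in CGG. Genes whose products join the same particle in equal numbers thus differed widely in how far their messages were lower.

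Across the 12 gates, 38 of 86 genes varied less than 2-fold in their share of the family's UMIs, the median range was 2.11-fold, and 7 genes varied at least 4-fold. Those 7 were Rpl3l, Rpl39l, Rpl7l1, Rps27rt, Rps27, Rps9 and Rps27a, the first pair on counts near 0.

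Standard members with other symbols behaved unevenly too. Fau, a ubiquitin-like protein fused to a small-subunit protein, had 2849 CPM in low-Il1b neutrophils and 4248 CPM in Mpo progenitors of CGG-Cit, and 3071 CPM in neutrophils and 4459 CPM in progenitors of CGG. Gnb2l1, the older symbol of Rack1, had 133 CPM in neutrophils and 2777 CPM in progenitors of CGG-Cit, and 173 CPM in neutrophils and 2417 CPM in progenitors of CGG. Fau was thus far less lowered than Gnb2l1 in both libraries.

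Genes that make or serve ribosomes declined with the family. In low-Il1b neutrophils against Mpo progenitors, all 24 of 25 assembly and rRNA processing genes that passed the level filter were at least 2-fold lower in both libraries (all genes 55.9% in CGG-Cit and 51.0% in CGG), with a median log2 change of −4.84 in CGG-Cit and −4.06 in CGG against −1.40 in CGG-Cit and −1.05 in CGG for all genes. Fbl, the rRNA methyltransferase fibrillarin, had 9 UMIs in neutrophils (6.99 CPM) and 2227 UMIs in progenitors (245 CPM) of CGG-Cit, and 5 UMIs in neutrophils (11.8 CPM) and 439 UMIs in progenitors (220.0 CPM) of CGG. All 17 translation factors and other TOP messages present in the files were also at least 2-fold lower, with medians of −3.67 in CGG-Cit and −3.04 in CGG. Of the family itself, 83 of 83 were at least 2-fold lower in CGG-Cit and 82 of 83 in CGG. Mitochondrial ribosome genes, which build a separate particle, had medians of −3.49 in CGG-Cit (70 of 72 at least 2-fold lower) and −3.04 in CGG (70 of 73). Myc, a transcription factor that drives ribosome production, had 1 UMI in these neutrophils of each library, and 1178 UMIs in Mpo progenitors of CGG-Cit and 242 UMIs in those of CGG.

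RNA polymerase I genes, which transcribe rRNA, were at least 2-fold lower for 9 of 10 in CGG-Cit and 7 of 9 in CGG. Ribosome rescue genes were so for 6 of 6 in both. Of all genes tested, 55.9% in CGG-Cit and 51.0% in CGG were at least 2-fold lower. Regulators of ribosome production were lower about as often as all genes, at 6 of 11 in CGG-Cit and 5 of 10 in CGG. At least 2-fold higher were 2 regulators in CGG-Cit (all genes 17.5%) and 3 in CGG (all genes 16.1%). Their median log2 change was −1.36 in CGG-Cit and −0.88 in CGG, against −1.40 and −1.05 for all genes.

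In the B lineage the assembly genes moved where the ribosomal protein genes hardly did. In small pre-B against Dntt pro-B cells, 22 of 24 assembly genes were lower in CGG-Cit with a median log2 change of −0.97. In CGG 18 of 19 were lower with a median of −0.68. The median of all genes was −0.05 in CGG-Cit and −0.06 in CGG. At least 2-fold lower were 12 assembly genes in CGG-Cit (all genes 14.7%) and 5 in CGG (all genes 13.2%). Only 2 of 84 ribosomal protein genes were 2-fold lower in each library.

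In late erythroblasts against early erythroid cells, Pabpc1, the poly(A)-binding protein, was the exception among the TOP messages. It had 1081 CPM in late and 703 CPM in early cells of CGG-Cit, and 1183 CPM in late and 647 CPM in early cells of CGG, while the other 16 were at least 2-fold lower. Across gates, the ribosomal protein share and the summed CPM of the TOP list gave Pearson's r of 0.985 over 19 gates of CGG-Cit and 0.971 over 25 gates of CGG. Both are shares of the same UMIs, gates of a library share its depth and handling, and the values are descriptive.

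Several members have a near relative, and the balance within such pairs differed between cell types. Rpl22l1 made up 25.7% of the UMIs of Rpl22l1 and Rpl22 in Dntt pro-B cells of CGG-Cit (24.6 to 26.8) and 24.5% in CGG (22.7 to 26.4), and in Mpo progenitors 33.5% in CGG-Cit and 32.9% in CGG. Ltf immature neutrophils had 43.5% in CGG-Cit and 45.4% in CGG. In stromal cells of CGG it reached 45.0% in the osteoblast lineage and 54.5% (51.9 to 57.1) in Ptgds stromal cells, where 776 UMIs of Rpl22l1 stood against 647 UMIs of Rpl22.

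Rps27l made up 31.4% of its pair with Rps27 in early erythroid cells of CGG-Cit and 24.1% in CGG, and in Mpo progenitors 27.4% in CGG-Cit and 22.6% in CGG. Among gates with at least 100 UMIs of it, it was lowest in Ms4a1 B cells, at 4.20% in CGG-Cit and 2.70% in CGG. In CD8 T cells it had 4.64% in CGG-Cit and 3.83% in CGG. Both progenitor gates thus held several times the Rps27l share of these lymphocyte gates in both libraries, and CGG-Cit was above CGG in each of these gates. Rps27 itself had a median log2 ratio of CGG-Cit over CGG of −0.47 over 12 gates.

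Rpl39l, a relative of Rpl39 best known from the mouse testis, was found mainly in stromal cells. Of its 2284 UMIs in CGG, 1016 were in Sfrp2 fibroblasts (108 CPM), 149 in osteoblast lineage cells (53.2 CPM) and 125 in cycling stromal cells (71.7 CPM). Ptgds stromal cells had 6 UMIs (8.37 CPM), and macrophages 21 UMIs (3.28 CPM). It was 3.31% of the pair in Sfrp2 fibroblasts (3.11 to 3.51) and 0.136% in macrophages (0.0844 to 0.208). In the CGG-Cit library, with few stromal cells, it had 121 UMIs over all cells, 1.26 CPM against 27.8 CPM in CGG.

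Rpl3l, known from heart and skeletal muscle, had 33 UMIs in Dntt pro-B cells of CGG-Cit and 20 in those of CGG, and in Ms4a1 B cells 1 UMI in CGG-Cit and 0 in CGG. In high-Il1b neutrophils it had 38 UMIs in CGG-Cit, 14.7% of its pair with Rpl3 (10.6 to 19.6), and 18 UMIs in CGG, 15.1% (9.22 to 22.9). In low-Il1b neutrophils it had 24 UMIs in CGG-Cit, 18.6% of the pair (12.3 to 26.4), and 3 UMIs in CGG, 6.0% (1.26 to 16.6). CD8 T cells had 0 UMIs of it beside 2041 UMIs of Rpl3 in CGG-Cit and 1694 in CGG.

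Pairs of near-identical copies are less certain, since reads may be assigned to either copy. Rps27rt, a copy of Rps27 on another chromosome, held between 4.34% and 5.42% of the pair over the 12 gates of CGG-Cit with at least 100 UMIs of it, and between 4.03% and 5.93% over 17 such gates of CGG, a near-constant fraction where Rps27 itself varied 5.40-fold within the family. Rpl36al ran from 33.6% of its pair with Rpl36a in endothelial cells to 66.5% in Ltf immature neutrophils of CGG-Cit, and from 30.6% to 63.4% in the same gates of CGG.

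**Figure D4:**
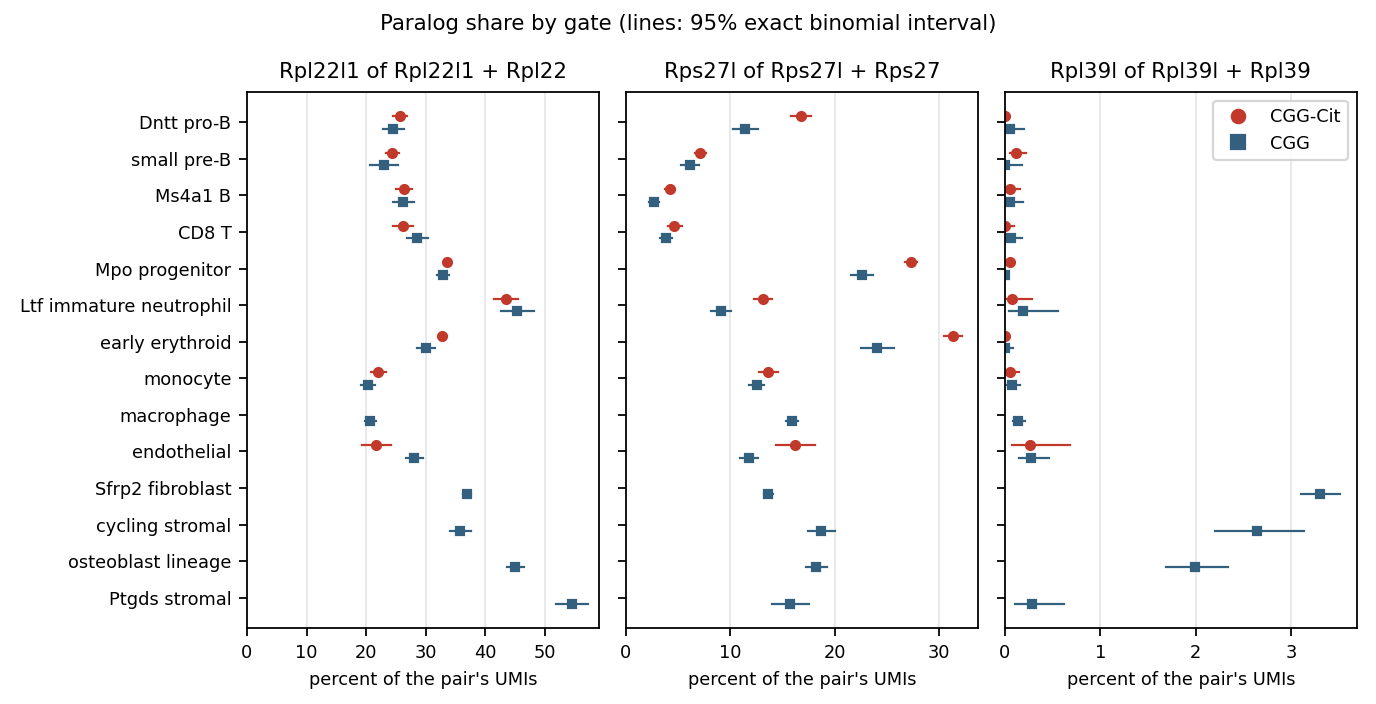
Percent of a pair's UMIs that came from Rpl22l1, Rps27l or Rpl39l (x axes, different scales) by gate, CGG-Cit as circles above CGG as squares, with 95% exact binomial intervals as lines. Rpl22l1 is highest in Ptgds stromal cells of CGG at 54.5%, Rps27l in early erythroid cells, and Rpl39l in Sfrp2 fibroblasts at 3.31%. Gates under 50 cells in CGG-Cit have no circle.

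Between the hydrogels, few single members were 1.5-fold apart in lymphoid and progenitor gates. Beside each count stands the share of all genes tested and that of genes with at least 100 CPM, a level most members pass. In the B lineage as a whole, 0 of 83 members were 1.5-fold apart in either direction, against 3.82% of all genes higher and 11.8% lower, and 4.74% higher and 4.87% lower of those with at least 100 CPM. In Mpo progenitors the count was also 0 of 83 (all genes 2.14% higher and 7.38% lower), near the share of genes with at least 100 CPM (0.357% higher and 1.93% lower). In monocytes it was 0 of 83 too (all genes 7.41% higher and 11.1% lower, at least 100 CPM 3.42% higher and 8.41% lower). In Ms4a1 B cells 5 of 83 were at least 1.5-fold lower, close to the share of genes with at least 100 CPM (7.6%) and under that of all genes (14.3%). In late erythroblasts 8 of 80 were lower, between the share of all genes (15.1%) and that of genes with at least 100 CPM (6.74%), and 2 were higher (all genes 7.23%, at least 100 CPM 2.81%). Low-Il1b mature neutrophils stood out in summed UMIs, with 77 of 82 genes lower in CGG-Cit. At least 1.5-fold lower were 27, against 22.9% of all genes and 15.3% of those with at least 100 CPM. The family's median log2 ratio was −0.45 there, against −0.14 for all genes tested. The summed share differed by −0.897 points (CGG-Cit minus CGG), on 278 and 105 cells. The share of the median cell differed by −0.458 points, a smaller gap than in Ltf immature neutrophils (−0.579 points). Rpl35 had 69.9 CPM in CGG-Cit and 187 CPM in CGG (2.68-fold lower), on 90 and 79 UMIs. Rps28 had 128 CPM in CGG-Cit and 341 CPM in CGG (2.66-fold lower), on 165 and 144 UMIs. Rps9, with 1749 CPM in CGG-Cit and 1592 CPM in CGG, and Rps27a, with 1828 CPM in CGG-Cit and 1737 CPM in CGG, were on the other side of 0 on the log2 scale.

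In that gate mitochondrial UMIs were 0.152% of the median cell in CGG-Cit and 0.470% in CGG, and Col1a1 read 17.1 CPM in CGG-Cit and 976 CPM in CGG. Elane, a primary granule gene of progenitors, read 63.7 CPM in CGG-Cit and 14.2 CPM in CGG. Their part in the lower share was not tested. Ltf immature neutrophils also had 77 of 82 genes lower in CGG-Cit, 5 of them at least 1.5-fold (all genes 7.72%, at least 100 CPM 7.17%). The family's median log2 ratio in that gate was −0.17, against −0.03 for all genes tested. In CD8 T cells 67 of 83 were higher in CGG-Cit, with a median log2 ratio of 0.22, against −0.08 for all genes tested. Rpl21 (4260 CPM in CGG-Cit and 3174 CPM in CGG) and Rplp0 (4124 CPM in CGG-Cit and 2986 CPM in CGG) were among the 3 highest ratios of members with at least 100 UMIs. Only 1 of 83 was at least 1.5-fold higher there (all genes 9.9%, at least 100 CPM 2.71%), Rpl7l1, on 33 UMIs in CGG-Cit and 18 in CGG.

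A few genes recurred at the low end. Rps28 was among the 3 lowest ratios of CGG-Cit over CGG in 11 of 12 gates, Rps27rt in 6, Rps29 in 5 and Rpl38 in 4. Rplp0, the stalk base protein, was among the 3 highest in 6. In cycling pre-B cells, for example, Rps28 had 2160 CPM in CGG-Cit and 3083 CPM in CGG, a ratio of 0.7005 (0.679 to 0.723), and Rps29 had 3802 CPM in CGG-Cit and 5103 CPM in CGG.

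For the 80 genes tested in all 12 gates, the median log2 ratio was set beside the coding length in GENCODE M21. The length was that of the longest sequence tagged CCDS (consensus coding sequence), or of the longest where none was tagged. This comparison was chosen after the ratios had been seen. Of the 11 genes with coding lengths of 75 to 315 bases, 10 were lower in CGG-Cit in every one of the 12 gates. These were Rpl41, Rpl39, Rps29, Rps28, Rpl38, Rps21, Rps27, Rpl37a, Rpl37 and Rpl36. The other, Rps27l with 315 bases like Rpl36, was lower in 7 of the 12 gates. With doublets kept, Rps27 in late erythroblasts turned to a log2 ratio of 0.09. Only 1 longer gene, Rpl35 with 369 bases, was lower in every gate, and none was higher in every gate. The 20 shortest had a median of −0.27, with 18 below 0, and the 20 longest, with at least 612 bases, a median of 0.10, with 1 below 0. Rps28 was lowest at −0.58 and Rplp0 highest at 0.22. How many of all genes were lower in every gate was not counted. The median log2 ratio of all genes tested lay between −0.14 and 0.02 over these gates. The gates come from 1 library pair and are not replicates.

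**Figure D5:**
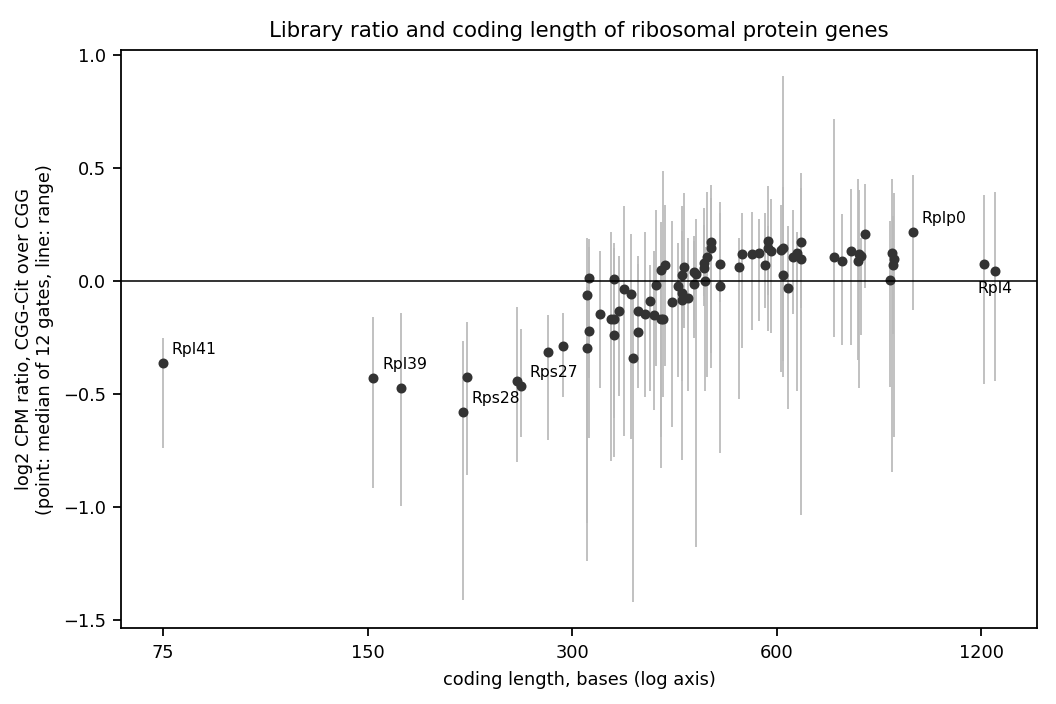
Log2 CPM ratio of CGG-Cit over CGG (y axis) against coding length in bases (x axis, log scale) for the 80 ribosomal protein genes tested in all 12 gates. Points are medians over gates and grey lines run from the lowest to the highest gate. Genes of up to 315 bases, save Rps27l, lie wholly below 0, and the medians of longer genes lie on both sides of 0.

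Across members within a gate, Pearson's r between log2 ratio and log2 coding length was between 0.519 and 0.784, over 80 to 84 genes. These genes share a library pair and are not independent, so the values are descriptive. In each of the 12 gates the shortest members had a lower median ratio than the longest, by between 0.23 and 0.61 on the log2 scale. Among other genes of at least 100 CPM and the same coding lengths the gap was smaller, from −0.13 to 0.06, and short genes were the lower ones in 10 of the 12 gates. The gap was present in gates whose total share was higher in CGG-Cit, such as CD8 T cells (−0.11 for short and 0.35 for long members), as in gates where it was lower, such as Ms4a1 B cells (−0.37 for short and 0.08 for long members). A difference between the libraries in how short messages were captured or counted, and a difference between the cells, cannot be told apart with 1 library per hydrogel.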

How the data were processed

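Each hydrogel's library was deposited as unnormalized UMI counts, which the authors made with Cell Ranger (4.0.0 per the file headers, 3.0 per the submitters' processing notes) on mm10. The labels name 3′ kit version 2 or 3 without saying which. The members and gene lists were chosen with earlier results of these data known. Barcodes were kept with at least 200 genes and at most 20% mitochondrial UMIs. Scrublet doublets were removed, 537 by its own threshold in CGG-Cit and, since that threshold marked 1 cell in CGG, the 1206 highest-scoring cells there at 0.8% per 1000 barcodes. A lineage needed 3 of up to 8 markers and the largest share of its list. UMIs were summed per gate and library. Ratios carry 0.5 added UMIs and need a mean of 10 CPM and 20 UMIs. Intervals are exact binomial for shares and pairs, Newcombe for differences and exact conditional binomial for ratios. They cover counting error only, and no test between hydrogels was possible. Gates were compared between libraries from 100 cells and between stages from 50. Some named genes are not reported here. Named genes were the 5 highest and lowest, paralogs and partners, the 8 widest ranges over gates, and the 3 highest and lowest ratios per gate among genes reaching 100 UMIs summed over both libraries. The ratio and interval steps were tested on simulated data. Python 3.11.15, numpy 2.4.6, scipy 1.17.1, pandas 2.3.3 and scanpy 1.11.5 were used.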

Additional observations from a re-analysis of the deposited data

Results flagged for a closer look

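The ribosomal protein share was higher in CGG-Cit than in CGG in 3 of 12 gates and lower in the other 9, and this opposite direction was not tested, since each hydrogel had 1 library. The differences were 4.08 percentage points in CD8 T cells, 1.51 points in small pre-B cells and 0.246 points in Mpo progenitors. The last turned in deep cells: at 5000 UMIs or more the share was 30.5% in CGG-Cit and 31.6% in CGG, and the 96 CGG cells below that depth had 17.2%.

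Symbols with -ps, which were left out of the family, still held counts: 16 were listed, with 0.0137% of all UMIs in CGG-Cit and 0.0131% in CGG.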

How the results depend on the processing

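No paired analysis was possible because each hydrogel had 1 library. The difference over all cells (2.84 points) was 2.33 with doublets kept, 5.78 without mitochondrial and the 20 highest other genes, 1.76 as a mean of per-cell shares, 1.71 in cells thinned to 1000 UMIs, 2.92 with a standard ribosome set (proteins with other symbols in, relatives out) and 2.93 in cells of at least 5000 UMIs, the last chosen after seeing the data. Of 12 gates, those higher in CGG-Cit numbered 6 with doublets kept and 6 without mitochondrial and top genes, against 3. At 5000 UMIs, 4 gates remained and 1 was higher, and the later stage was lower in 9 of 11 steps, against 16 of 21. In the B lineage, members 1.5-fold apart numbered 2 with doublets kept and 2 with no minimum level (Rpl6l and Rpl3l), against 0.

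Reversed differences between libraries (CGG-Cit minus CGG, points) were, with doublets kept, high-Il1b neutrophils 0.074, cycling erythroblasts 0.066 and late erythroblasts 0.171. With 1 more marker, monocytes had 0.087. Without mitochondrial and top genes, cycling erythroblasts had 0.576, late erythroblasts 0.036 and monocytes 0.082. Cycling pre-B cells had 0.419 as a per-cell mean and 0.466 thinned. Reversed stage differences (later minus earlier) were small pre-B minus cycling pre-B, at 1.31 in CGG-Cit and 0.182 in CGG as per-cell means, and 1.31 and 0.232 thinned. Low-Il1b neutrophils minus Ltf immature ones gave 0.077 in CGG-Cit with doublets kept, and in CGG 0.565 as a per-cell mean and 0.579 thinned. High-Il1b minus low-Il1b neutrophils of CGG gave −0.447 without mitochondrial and top genes, −0.279 as a per-cell mean and −0.259 thinned. The log2 ratio of Rps27 in late erythroblasts was 0.094 with doublets kept. The cause was not tested.

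The direction held in 73 of 82 recomputed gate differences, 136 of 146 stage differences and 358 of 360 member ratios. Doublets were called unlike in the libraries. The library gaps of high-Il1b neutrophils and of cycling and late erythroblasts reversed with doublets kept. Those of both erythroblast gates also reversed without mitochondrial and top genes.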
